A study of Penicillium oxalicum with 9 samples.

Results

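The genes described here are PDE_09417, the glucoamylase gene amy15A, and PDE_01201, the alpha-amylase gene amy13A, of the filamentous fungus Penicillium oxalicum. They were chosen by locus number as the main starch-degrading enzymes, and are 2 of the 9860 genes in the deposited table. The table itself pairs no locus number with a gene name, so the names rest on the choice of members. Messenger RNA was measured in 9 libraries of bulk mycelium. The 3 libraries of the deletion strain came from a mutant lacking crzA, the 3 libraries of the recovery strain from a strain with crzA put back, and the 3 libraries of the wild type from strain 114-2. It is not given in the sources used here how crzA was removed and returned, or whether a strain is 1 clone. All strains shared the same growth history, namely pre-culture for 24 h at 30 °C and harvest 18 h after mycelium was moved to fresh medium. The medium label, the growth protocol and the design text name 2% starch as carbon source, whereas the source label of every sample names glucose. The conflict was not settled, and it concerns the substrate of the enzymes described here. Whether replicates came from separate cultures is not stated, so p-values measure only how far these libraries lie apart, which may be technical in origin.

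Starch is a glucose polymer that fungi digest outside the cell. Alpha-amylase cuts bonds inside the chain and releases shorter dextrins, and glucoamylase removes glucose units from the chain ends, so that the enzymes act in turn on the same substrate. In Penicillium and Aspergillus, amylase genes are known to be activated by the transcription factor AmyR in the presence of starch or maltose and repressed through CreA when glucose is plentiful. CrzA is a zinc finger transcription factor that enters the nucleus after dephosphorylation by calcineurin, a phosphatase activated by calcium. The series title asks about CrzA in fungal development and in cellulase gene expression. Amylases are another group of secreted polysaccharide enzymes in the same libraries.

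Values are FPKM, meaning fragments counted per kilobase of a gene and scaled to the size of the library. Summed FPKM ranged from 973798 to 1063502 per library, and the number of reads was not given. A total of 9099 genes reached 1 FPKM in 3 or more libraries and were tested, both amylase genes among them. The lowest of their 18 values was 14.6 FPKM. Wild-type replicate 2 and deletion replicate 2 stood apart from the other libraries of their strains. Against the mean of replicates 1 and 3 of the same strain, 1176 genes (12.9% of those tested) differed by at least 2-fold in deletion replicate 2 and 917 genes (10.1%) in wild-type replicate 2. The strain differences in level, ratio and share are therefore given with and without both libraries, while spreads within a strain and likenesses of pattern are given with all 9. The level of crzA itself, which would check the strain labels, was not analysed here, because no locus number is paired with that gene.

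Glucoamylase transcript was abundant in every strain, with the highest mean in the deletion strain. PDE_09417 stood at 1557, 4485 and 2423 FPKM in deletion replicates 1, 2 and 3. In the recovery strain it stood at 1351, 1844 and 1113 FPKM in replicates 1, 2 and 3. The wild-type values were 967, 246 and 1347 FPKM in replicates 1, 2 and 3. All 3 deletion libraries lay above all 3 wild-type libraries, whereas the recovery libraries overlapped both other strains. The means were 2822 ± 1504 FPKM in the deletion strain, 1436 ± 373 in the recovery strain, and 853 ± 559 in wild-type libraries (SD, n = 3 each). By level the gene ranked between 13 and 77 of the 9860 genes in the deletion libraries, between 73 and 153 in the recovery libraries and between 105 and 648 in the wild-type libraries. FPKM divides by gene length, but the labels describe a tag protocol, so ranks between genes may be shifted by that division.

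**Figure D1:**
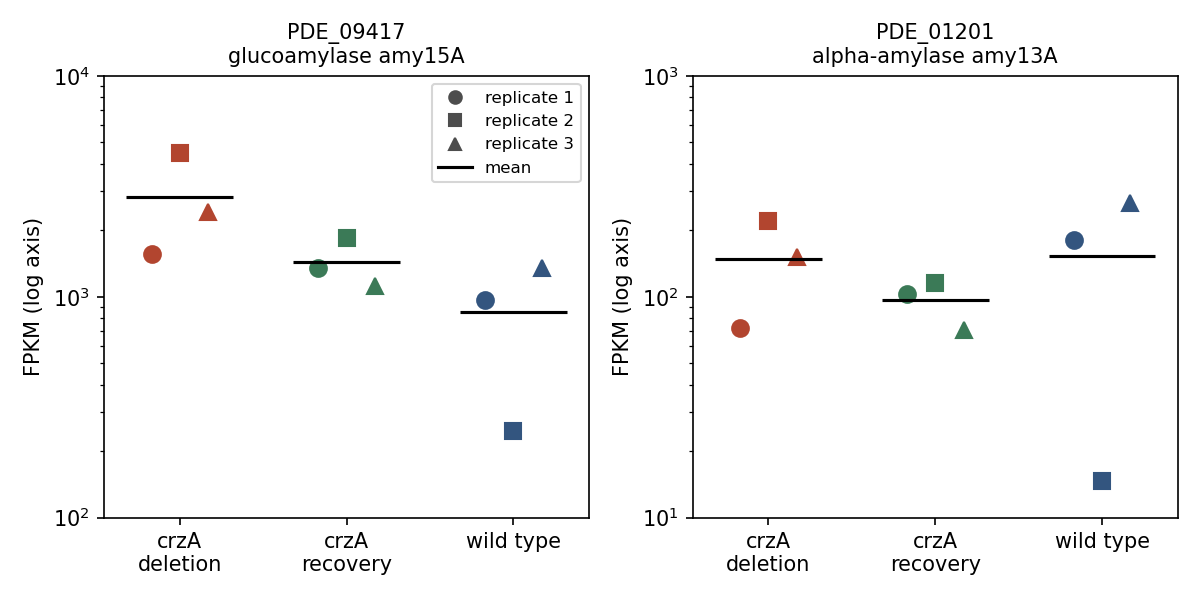
FPKM (log axis) of the glucoamylase gene (left) and the alpha-amylase gene (right) in each of the 9 libraries, by strain. Symbols mark replicates 1 to 3 and the line the arithmetic mean of 3 libraries. The deletion libraries lie above the wild-type libraries for glucoamylase and among them for alpha-amylase, and wild-type replicate 2 is the lowest library for both genes.

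Setting the deletion strain beside the wild type addressed whether loss of crzA was accompanied by a change of the amylase transcripts. Glucoamylase was higher in the deletion strain by 1.91 ± 0.61 on the log2(FPKM + 1) scale (SE), a 3.75-fold difference with a 95% interval of 1.43 to 9.80. The adjusted p was 0.0488 (limma, two-sided, Benjamini-Hochberg over 9099 genes), just under the threshold of 0.05. Of all tested genes 26.1% were called in this comparison in either direction and 15% were called higher. Values of the strains that did not overlap were found for 35.9% of tested genes, and 21.4% lay wholly higher in the deletion strain. A change larger than that of glucoamylase was seen in 221 genes, 2.43% of those tested, and the median log2 change over all tested genes was 0.06. The call was lost without any 1 of 8 libraries. The adjusted p in limma was then 0.0506, 0.106 and 0.111 without deletion replicates 1, 2 and 3, between 0.0704 and 0.0754 without recovery replicates 1, 2 or 3, 0.0749 without wild-type replicate 1 and 0.0655 without wild-type replicate 2. It was 0.0344 without wild-type replicate 3. The log2 change was 1.17 without wild-type replicate 2. The call was also lost with no filter on low values (limma adjusted p = 0.0550), after quantile normalization (0.0572), with array weights (0.123) and in a fit to these 2 strains alone (0.111). With the replicate number as a block it was lost as well (limma adjusted p = 0.0763). Without both libraries that stood apart the log2 change was 0.77 ± 0.29, with an adjusted p of 0.0537 in limma. In that fit 4918 of 9025 tested genes were called in this comparison, and glucoamylase was not among them. With array weights 4653 of 9099 tested genes were called, again without glucoamylase.

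Alpha-amylase FPKM was lower than glucoamylase FPKM in every library, and the gene showed no call between strains with all 9 libraries. PDE_01201 stood at 72.0, 221 and 151 FPKM in deletion replicates 1, 2 and 3. The recovery libraries held 102, 115 and 70.9 FPKM in replicates 1, 2 and 3. The wild type held 181, 14.6 and 265 FPKM in replicates 1, 2 and 3. Both the highest and the lowest of the 9 values were wild-type libraries, and the other strains lay between them. The means were 148 ± 74.6 FPKM in the deletion strain, 96.1 ± 22.7 in the recovery strain, and 153 ± 127 in wild-type libraries (SD, n = 3 each). The order of the strains by these means could not be told from the spread within them. In wild-type replicate 2 the gene ranked 6224 of 9860 by level, against 617 to 2303 in the other 8 libraries.

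Against the wild type, alpha-amylase in the deletion strain had a log2 difference of 0.57 ± 0.93 (SE, limma adjusted p = 0.683). The 95% interval of this difference ran from -1.53 to 2.67, so that neither a 2-fold rise nor a 2-fold fall is outside it. The sign depended on wild-type replicate 2. Without that library the log2 difference was -0.70 (limma adjusted p = 0.259). Without both libraries that stood apart it was -1.06 ± 0.39 (limma adjusted p = 0.0540). In that fit 4918 of 9025 tested genes were called in this comparison, and alpha-amylase was not among them.

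Setting the deletion strain beside the recovery strain asks whether a difference disappears when crzA is returned. Neither amylase gene was called here, whereas 31.5% of tested genes were. Glucoamylase had a log2 difference of 0.87 ± 0.61 between the deletion strain and the recovery strain (SE, limma adjusted p = 0.307), with a 95% interval of -0.52 to 2.26. Alpha-amylase had a log2 difference of 0.50 ± 0.93 (limma adjusted p = 0.708), with an interval of -1.60 to 2.61. Both differences were positive, and both intervals include a 4-fold higher level in the deletion strain as well as no difference. Without deletion replicate 2 the log2 difference of glucoamylase was 0.47 and that of alpha-amylase 0.15. This comparison shares the deletion libraries with the preceding one, so the values are not independent.

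Setting the recovery strain beside the wild type asks whether returning crzA gave back the parental level. Few genes were called between these strains, 1.57% of those tested, and neither amylase gene was among them. Glucoamylase had a log2 difference of 1.04 ± 0.61 between the recovery strain and the wild type (SE, limma adjusted p = 0.498), with a 95% interval of -0.35 to 2.42. Without wild-type replicate 2 this difference was 0.30. Alpha-amylase had a log2 difference of 0.06 ± 0.93 (limma adjusted p = 0.984), with an interval of -2.04 to 2.17. Without wild-type replicate 2 it was -1.21 (limma adjusted p = 0.145). Without both libraries that stood apart it was again -1.21, now with an SE of 0.35 and past the threshold (limma adjusted p = 0.0445), a threshold that 28.2% of the 9025 genes tested in that fit passed. In these remaining libraries the recovery strain held 102, 115 and 70.9 FPKM, below the 181 and 265 FPKM of wild-type replicates 1 and 3.

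**Figure D2:**
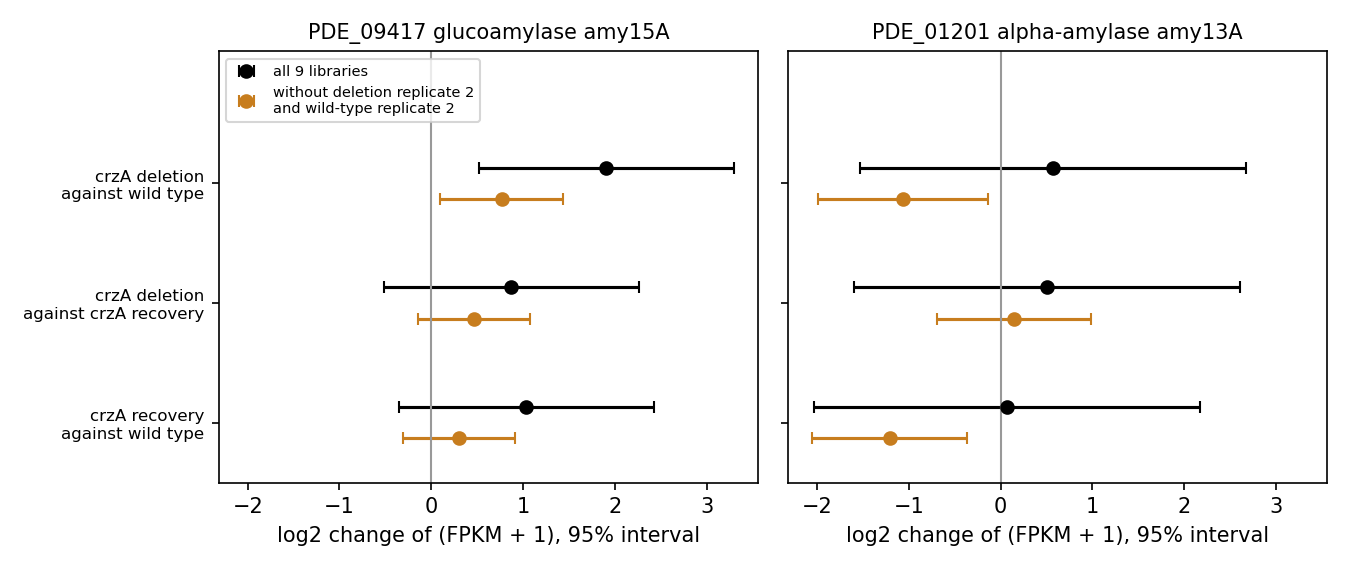
Log2 change of FPKM + 1 with its 95% limma interval for both amylase genes in the 3 strain comparisons, from all 9 libraries (black) and without deletion replicate 2 and wild-type replicate 2 (orange). With all libraries, the interval for glucoamylase in deletion against wild type is the 1 interval of 6 that lies wholly above 0. Without both libraries the alpha-amylase changes against the wild type are -1.06 and -1.21.

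The balance between the enzymes was compared through the ratio of both transcripts within a library, which does not depend on library scaling apart from the added 1. As for ranks, the size of the ratio may be shifted by the division by gene length. That division is the same for a gene in every strain. Glucoamylase FPKM was 21.6, 20.3 and 16.1 times alpha-amylase FPKM in deletion replicates 1, 2 and 3. The ratio was 13.2, 16.0 and 15.7 in recovery replicates 1, 2 and 3. In the wild type it was 5.34, 16.8 and 5.09 in replicates 1, 2 and 3. The low ratios belong to wild-type replicates 1 and 3, while the ratio of wild-type replicate 2 lay within the range of the other strains. The mean log2 ratio was 4.25 ± 0.22 in the deletion strain, 3.88 ± 0.15 in the recovery strain, and 2.91 ± 0.93 in wild-type libraries (SD, n = 3 each).

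The difference in mean log2 ratio between the deletion strain and the wild type was 1.34 (exact permutation test, two-sided, p = 0.1). With 1 added to each value all 3 deletion ratios were above all 3 wild-type ratios, but without it deletion replicate 3, at 16.1, was below wild-type replicate 2, at 16.8. With 0.1 added the difference was 1.32 and the exact permutation p 0.2. Deletion ratios were also all above recovery ratios, though by a smaller 0.37 (exact permutation p = 0.1). The closest libraries of these strains were deletion replicate 3 and recovery replicate 2, with FPKM ratios of 16.1 and 16.0. Recovery and wild-type ratios overlapped, with a difference of 0.97 (exact permutation p = 0.3). With 3 libraries against 3 the smallest p this test can give is 0.1, so no difference of ratios could pass 0.05. Without both libraries that stood apart the differences were 1.83 in deletion against wild type, 0.32 in deletion against recovery and 1.51 in recovery against wild type. The exact permutation p was then 0.333, 0.2 and 0.2 in the same order. Only replicates 1 and 3 of the deletion strain and of the wild type remained, so the smallest possible p was above 0.1.

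**Figure D3:**
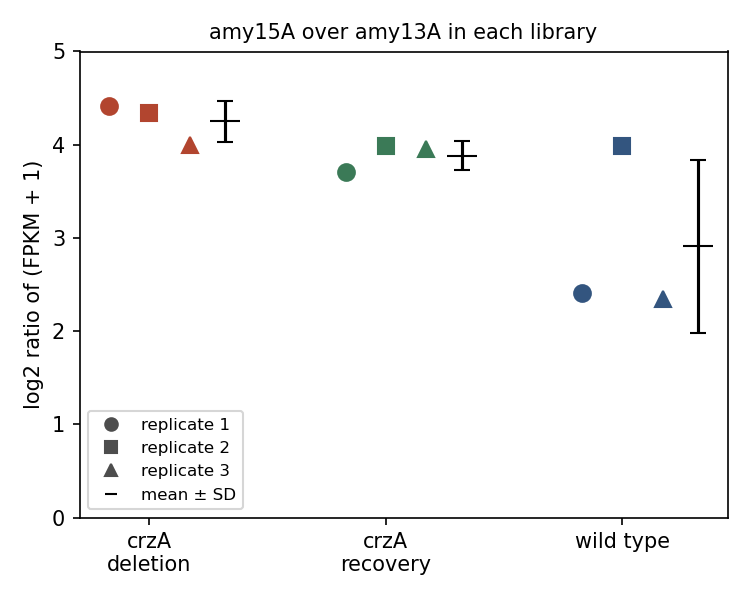
Log2 ratio of glucoamylase to alpha-amylase (FPKM + 1 of each) in each library, by strain, with the mean and SD of 3 libraries. Wild-type replicates 1 and 3 lie at 2.41 and 2.34, and the other 7 libraries between 3.71 and 4.42.

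Shares were taken of summed FPKM, so, as for ranks, their size may be shifted by the division by gene length. Glucoamylase held 0.284% ± 0.157 of summed FPKM in the deletion strain and 0.136% ± 0.0339 in the recovery strain. It held 0.0820% ± 0.0539 in wild-type libraries (SD, n = 3 for each strain). Its share was 0.202 percentage points larger in the deletion strain than in the wild type (exact permutation test, two-sided, p = 0.1, the smallest possible). The difference between the deletion and recovery strains was 0.148 percentage points (exact permutation p = 0.2), and that between the recovery strain and the wild type 0.0541 (exact permutation p = 0.3). Single libraries moved these differences by more than 1.5-fold. Without deletion replicate 2 the deletion strain differed by 0.114 percentage points from the wild type and by 0.0603 from the recovery strain. The difference between the recovery strain and the wild type was 0.0247 without wild-type replicate 2 and 0.0354 without recovery replicate 2. Without both libraries that stood apart, an alternative added after seeing the data, the 3 differences were 0.0850, 0.0603 and 0.0247 percentage points. Alpha-amylase held 0.0149% ± 0.00767 in the deletion strain, 0.00911% ± 0.00206 in the recovery strain, and 0.0148% ± 0.0122 in wild-type libraries. For alpha-amylase the exact permutation p was 1 for deletion against wild type, 0.3 for deletion against recovery and 0.5 for recovery against wild type. Without both libraries its differences were -0.0105, 0.00184 and -0.0123 percentage points in the same 3 comparisons. In bulk mycelium, fewer cells that express a gene and less RNA per cell cannot be told apart.

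Both amylase genes varied among replicates of a strain far more than most genes did. The SD of log2(FPKM + 1) of glucoamylase was 0.77 in the deletion strain, 0.37 in the recovery strain, and 1.30 in wild-type libraries. For alpha-amylase it was 0.82 in the deletion strain, 0.36 in the recovery strain, and 2.22 in wild-type libraries. The median over all tested genes was 0.28 in the deletion strain, 0.11 in the recovery strain, and 0.21 in wild-type libraries. Only 29 of 9099 tested genes had a larger SD than alpha-amylase among the wild-type libraries, and 131 had a larger one than glucoamylase. In the recovery strain 5.03% of genes varied more than glucoamylase and 5.32% more than alpha-amylase, and in the deletion strain 7.48% and 6.25%.

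The genes followed each other within strains. In the deletion strain replicate 1 was the lowest and replicate 2 the highest for both genes. In the recovery strain replicate 3 was the lowest and replicate 2 the highest, and in the wild type replicate 2 was the lowest and replicate 3 the highest, again for both. Of the 9098 other tested genes, 57 (0.627%), alpha-amylase included, had the replicate order of glucoamylase in all 3 strains. Deletion replicate 2 exceeded the mean of deletion replicates 1 and 3 by 1.21 log2 units for glucoamylase and 1.08 for alpha-amylase. Further above lay 4.41% of tested genes in the case of glucoamylase and 5.62% in that of alpha-amylase. These shares leave out genes that were lower in deletion replicate 2. At a difference of at least 2-fold, 588 genes were higher in that library and 588 lower. Wild-type replicate 2 differed from the mean of wild-type replicates 1 and 3 by -2.21 log2 units for glucoamylase and by -3.82 for alpha-amylase. Further below lay 89 genes in the case of glucoamylase and 16 in that of alpha-amylase. For comparison, the log2 change of glucoamylase in the deletion strain against wild type was 1.91 with all libraries. The part that either of these libraries has in the strain comparisons is given by the values without them.

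**Figure D4:**
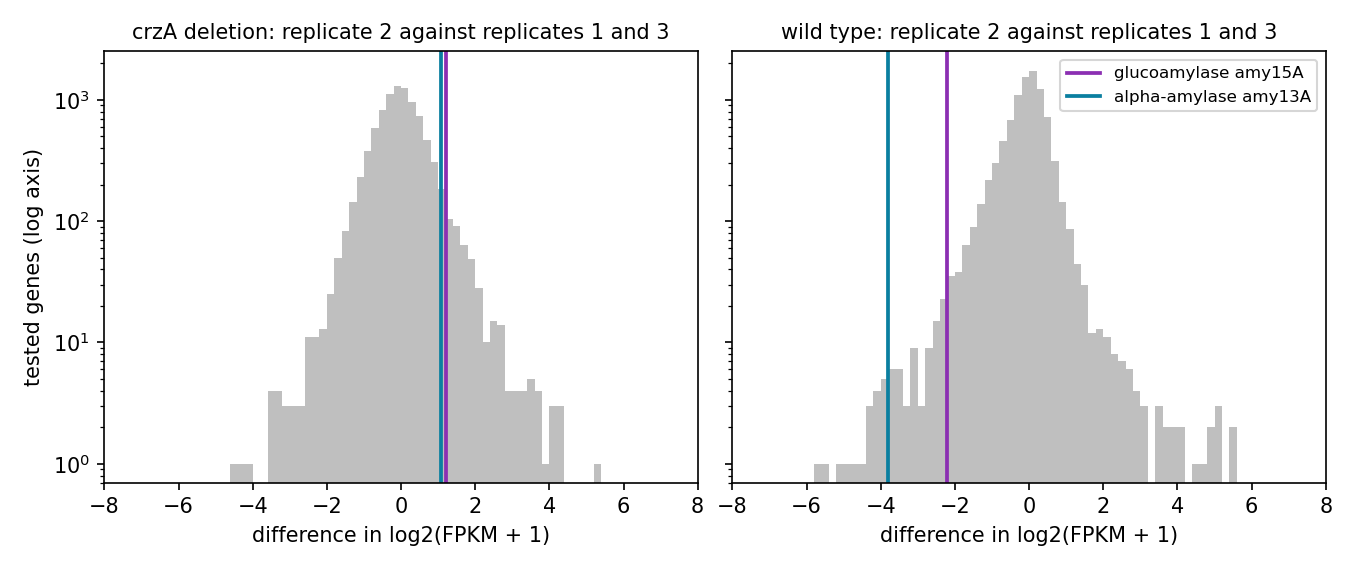
Number of tested genes (log axis) by the difference in log2(FPKM + 1) between replicate 2 and the mean of replicates 1 and 3, in the deletion strain (left) and the wild type (right). Lines mark both amylase genes, at 1.21 and 1.08 in the deletion strain and at -2.21 and -3.82 in the wild type.

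The likeness of patterns was measured as the root mean square difference between log2 profiles over the 9 libraries, each centred on its own mean, among 7229 other tested genes with a mean of at least 10 FPKM. The amylase genes differed from each other by 0.72 log2 units. Only 4 genes were closer to alpha-amylase than glucoamylase was, and 20 genes were closer to glucoamylase than alpha-amylase was. The genes closest to glucoamylase were PDE_01335 at 0.54, PDE_08743 at 0.56 and PDE_04321 at 0.58 log2 units. PDE_01335 stood at 1164, 2438 and 1778 FPKM in deletion replicates 1, 2 and 3, at 774, 775 and 729 in the recovery replicates, and at 988, 417 and 1051 in the wild-type replicates. It thus had the high deletion replicate 2 and the low wild-type replicate 2 of glucoamylase, but its recovery libraries lay between 729 and 775 FPKM.

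The genes closest to alpha-amylase were PDE_01802 at 0.46, PDE_04708 at 0.58 and PDE_05907 at 0.62 log2 units. PDE_01802 stood at 133, 256 and 154 FPKM in deletion replicates 1, 2 and 3, at 111, 110 and 108 in the recovery replicates, and at 489, 27.1 and 372 in the wild-type replicates. All 3 of these genes had their lowest value of the 9 libraries in wild-type replicate 2. None of these 3 was called in any strain comparison. Of the 3 closest to glucoamylase, PDE_01335 was called higher in deletion against wild type (limma adjusted p = 0.0477) and in deletion against recovery (0.0426), and PDE_04321 in deletion against wild type (0.0340). Of all tested genes 26.1% were called in deletion against wild type and 31.5% in deletion against recovery. Genes were picked for their likeness to a member over these libraries. Their values in replicate 2 and their calls therefore follow in part from the choice. The locus numbers have no annotation in the sources used here, and the likeness rests on the same 9 libraries in which replicate 2 of both strains stood apart.

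The neighbours of the amylase genes were taken by locus number, 5 listed numbers on each side, without annotation of position or strand. Of the 10 neighbours of glucoamylase, 9 were tested, and 1 was called higher and 0 lower in the deletion strain than in the wild type, where 15% of all tested genes were called higher and 26.1% in either direction. Their log2 changes ran from -0.52 to 0.91, all below the 1.91 of glucoamylase. Against the recovery strain 1 neighbour was called higher and 1 lower, and none was called with the same sign in both comparisons of the deletion strain.

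Alpha-amylase lies by number close to a pair of genes that were more than 10-fold higher in the deletion strain. Of its 10 neighbours 7 were tested, and 2 were called higher in the deletion strain in both comparisons. Of all 9099 tested genes, 15% were called higher in the deletion strain than in the wild type. Against the recovery strain 1402 genes were called higher, and 31.5% were called in either direction. The share of all genes called higher in both comparisons was not computed. The other called neighbour was PDE_01206, named after its values were seen, with a log2 change of -0.82 in deletion against recovery (limma adjusted p = 0.0217) and 1.26 in recovery against wild type (limma adjusted p = 0.0286). PDE_01199 averaged 637 ± 127 FPKM in the deletion strain, 21.2 ± 5.08 in the recovery strain, and 13.2 ± 3.42 in wild-type libraries (SD, n = 3 each). PDE_01198 averaged 381 ± 105 FPKM in the deletion strain, 14.6 ± 2.17 in the recovery strain, and 20.1 ± 0.664 in wild-type libraries. Against the wild type their log2 changes were 5.51 and 4.14, against 0.57 for alpha-amylase 2 and 3 numbers away. PDE_01200, the number directly below alpha-amylase and named after its values were seen, stood at 4, 2.45 and 3.67 FPKM in deletion replicates 1, 2 and 3. It stood at 1.13, 1.01 and 1.94 in the recovery replicates and at 38.9, 0.95 and 35.6 in the wild-type replicates. As for alpha-amylase, wild-type replicate 2 was its lowest library and far below wild-type replicates 1 and 3, but PDE_01200 was also below 5 FPKM in every deletion and recovery library. The neighbours did not share 1 pattern. PDE_01202, the number directly above alpha-amylase, was highest in wild-type replicate 2, at 3.36, 9.19 and 3.56 FPKM in wild-type replicates 1, 2 and 3. PDE_01205 and PDE_01206 were lowest in wild-type replicate 2, at 1.22 and 128 FPKM, but PDE_01205 reached at most 4.25 FPKM in any library. PDE_01196 stood at 13.8, 4.19 and 13.1 FPKM in wild-type replicates 1, 2 and 3. Its values in recovery replicates 1 and 2 were lower still, at 4.08 and 4.16 FPKM. In wild-type replicates 1, 2 and 3, PDE_01198 stood at 19.8, 19.7 and 20.9 FPKM and PDE_01199 at 9.47, 16.2 and 13.7. PDE_01196, PDE_01202 and PDE_01205 were named after their values were seen.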

How the data were processed

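Values of 9 libraries (3 strains, 3 libraries each) came from 1 table of 9860 genes. The authors deposited FPKM values, as the column headers name them, rounded to 2 decimals. Per the labels' protocols, cDNA was cut with NlaIII and MmeI into tags, which need no division by gene length, so the unit and the protocol do not match. For the aligner, the counter, the build and the gene models the entry is: not given in the sources used here. Whether reads of similar amylase genes were shared was not tested. The reference table matched 0 of 9860 locus numbers. Relative depth, from the commonest ratio of low values (0.3 to 2 FPKM, at least 414 genes), lay within 2.94% of the mean, an estimate blind to whole multiples. No interval for counting error was computed.

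Genes reaching 1 FPKM in 3 or more libraries were analysed as log2(FPKM + 1), a scale that understates changes of low genes. The linear model (limma 3.58.1, R 4.3.3) gave each strain 1 mean over all 9 libraries, with trend and robust moderation and Benjamini-Hochberg adjustment over all 9099 tested genes. Ratios and shares were compared by exact permutation (scipy 1.17.1). In simulated data for deletion against wild type over 9099 genes, the share recovered was 52.4% at a 2-fold change and 89.8% at a 4-fold change, and 5.20% of calls were false. The simulation drew independent noise for each gene and changed 200 genes, so no whole library stood apart in it. Its rates are averages over genes and do not carry over to the amylase genes, which varied more than most. The members, lists and alternatives were chosen with earlier results of these data known. The rule for named genes gave the 3 tested genes most alike each member in profile, and neighbours called in both deletion comparisons with 1 sign. Outside that rule, PDE_01196, PDE_01200, PDE_01202, PDE_01205 and PDE_01206 were named after their values were seen. No sample was left out of the reported fit.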

Additional observations from a re-analysis of the deposited data

How the results depend on the processing

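Each limma result was recomputed under 21 other settings. Glucoamylase in deletion against wild type stayed positive in all of them, but was no longer past the threshold in 14. Its log2 change was 1.91 without a filter (adjusted p = 0.0550), 1.84 after quantile normalization (0.0572), 0.87 with array weights (0.123), 1.91 with only the strains compared (0.111), 0.77 without both libraries that stood apart (0.0537) and 1.17 to 2.39 with 1 library left out (0.0344 to 0.111). In deletion against recovery and in recovery against wild type, glucoamylase stayed positive and uncalled in all 21, as did alpha-amylase in deletion against recovery.

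Alpha-amylase in deletion against wild type turned to -0.90 with array weights and -1.06 without both libraries, and ran from -0.70 to 1.34 with 1 library left out. In recovery against wild type it turned to -0.0023 with a pseudocount of 5, -0.0071 after median centring, -1.01 with array weights and -1.21 without both libraries (adjusted p = 0.0445), and ran from -1.21 to 0.84 with 1 library left out. Its share difference in deletion against wild type, 0.000112 percentage points, was -0.0013 without the most abundant gene in the sum, -0.0105 without both libraries (added after seeing the data) and ran from -0.0066 to 0.0054 with 1 library left out. No ratio difference changed sign.

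The numbers of genes called, 2374 in deletion against wild type, 2864 in deletion against recovery and 143 in recovery against wild type, were 4653, 5085 and 4032 with array weights and 4918, 5454 and 2544 without both libraries. With only the strains compared they were 1437 in the first and 293 in the third. With 1 library left out they ran from 1435 to 3756, 1822 to 4297 and 31 to 683. The cause of these shifts was not tested.

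Samples of 1 number were not treated as pairs, as the labels state no batch. Deviations of 3 of 9 same-number pairs correlated over 0.1 (-0.106 to 0.222), while 6 of 9 libraries correlated best with their own number. Whether the numbers mark shared handling was not tested. With the replicate number as a block, glucoamylase in deletion against wild type was no longer called (adjusted p = 0.0763). Its log2 change of 1.91 cannot move under a block in this balanced design. The counts of genes called were 2141, 2682 and 113. Depth in reads is unknown, so limits it sets were not estimated.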
